A study of Mus musculus with 6 samples.

Results

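Cytokines, chemokines, their receptors and the proteins that damp their signals were described in mouse myotubes with and without knockdown of the long non-coding RNA H19. The members were taken by symbol from the table that compares the groups. A feature belonged to them when any of its gene symbols began with Ccl, Ccr, Cxcl, Cxcr, Il, Csf, Socs or Tlr followed by a digit, or with Cx3c, Tnf or Osm, or was Lif or Lifr, and Cxcl10 was left out. Of the 3019 features listed, 2549 carried a symbol and 29 were members.

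The cells were C3H myoblasts differentiated into myotubes and collected at day 4. They were transfected 40 h after the start of differentiation with a control siRNA (siCon) or with an H19-specific siRNA (siH19) and harvested 48 h later. There were 3 libraries per group, made from total RNA after removal of ribosomal RNA with strand kept. Both groups therefore share the cell line and the transfection, and differ in 1 siRNA. The table gives for each feature 1 value per group, the log2 of FPKM (a count of sequenced fragments divided by transcript length and by library size), estimated over the 3 libraries together. No value per library was used here, the depth is unknown, and no spread between replicates could be set beside a difference, so that everything below is a description of those group values without a test. All 3019 listed features had been called as differing by the authors, and a gene that is not listed may be expressed at any level.

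Cytokines are secreted proteins that bind receptor chains at the cell surface. Receptors of the IL-1, Toll-like and TNF families act mainly on NF-κB, whereas receptors of the IL-2 and IL-6 families act through JAK kinases and STAT factors, which SOCS proteins restrain. Chemokines act on G protein-coupled receptors and direct cell migration. Muscle cells both secrete cytokines (myokines) and respond to them during differentiation and repair.

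Among the members, 20 had a higher group value in siH19 and 9 a lower one. The higher share was 69.0%, beside 62.8% of all listed features. Past a 1.5-fold difference, 14 members (48.3%) were higher, beside 37.4% of all features, and 6 (20.7%) were lower, beside 16.9%. Past 2-fold, 4 members were higher (13.8%, beside 16.9% of all features) and 3 were lower (10.3%, beside 6.09%). The 4 were Il21r, Il1b, Tnfrsf22 and Il1rl1, and the 3 were Cxcr6, Il1rn and Cxcl5. On the scale of log2(FPKM + 1), which shrinks differences of low values, Cxcr6 alone stayed past 2-fold, at -1.57, and the others were 0.37 (Il21r), 0.68 (Il1b), 0.93 (Tnfrsf22), 0.32 (Il1rl1), -0.83 (Il1rn) and -0.33 (Cxcl5). The median difference, siH19 minus siCon, was 0.49 on the log2 scale over the members, 0.41 over the listed features with a symbol and 0.45 over all listed features. When every difference was lowered by the 0.41, the split past 1.5-fold turned from 14 higher and 6 lower to 4 higher and 9 lower. Beside it stood 248 higher and 1016 lower of the 2549 features with a symbol under the same shift. By construction, these are the counts higher past 2-fold and lower by any size. The median of the members became 0.08. The 0.41 is the median of listed features only and may not be the shift of all genes. Of the 20 higher members, 19 lay above that 0.41. The smallest difference of any member was 0.38 in size.

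H19 itself, the siRNA target, had group values of 11.20 (siCon) and 7.50 (siH19) in log2 FPKM, a difference of -3.70, which leaves 7.69% of the control level. Of 11 symbols of myotube markers, 10 are in the annotation, and Myh3 and Myh8 fall in 1 joint feature with other myosin genes. For these symbols 7 features were listed, all higher in siH19, with a median difference of 0.74. Beside them, 62.8% of all listed features were higher, and the median was 0.41 over those with a symbol. Among the myotube markers Myog, a transcription factor of muscle differentiation, had 7.79 in siCon and 9.22 in siH19, and Mb, myoglobin, had 7.61 and 8.95. Of 13 symbols of leukocyte markers, 12 of them in the annotation, and of 5 endothelial markers none was listed. Of 8 fibroblast and mesenchymal markers 2 were, Pdgfrb and Col1a1, each with a difference of 0.41. The part of these markers in the values of the members was not tested. In bulk RNA, fewer cells of a type and less RNA per cell cannot be told apart.

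The members lay from -2.60 (Il21r) to 5.00 (Il6st) on the log2 FPKM scale in siCon and from -1.72 (Cxcl5) to 5.49 (Il6st) in siH19. Their median was 2.29 in siCon and 2.74 in siH19, below the medians of the listed features with a symbol, 3.30 and 3.52. Below 1 FPKM were 5 members in siCon and 3 in siH19. The listed members cover a minority of each family. In the GENCODE annotation of GRCm38, 2413 of 20914 protein-coding genes with a 3′ UTR were listed under their current symbol. Beside that, 207 protein-coding genes match the symbols of the members, and 28 of them (13.5%) were so listed, while Cxcr7 was listed under its older name. Among the genes not listed were Il6, Tnf, Csf1, Cxcl12, Il1r1, Il6ra, Lifr, Osmr, Socs1, Socs3 and all 12 Toll-like receptors.

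**Figure D1:**
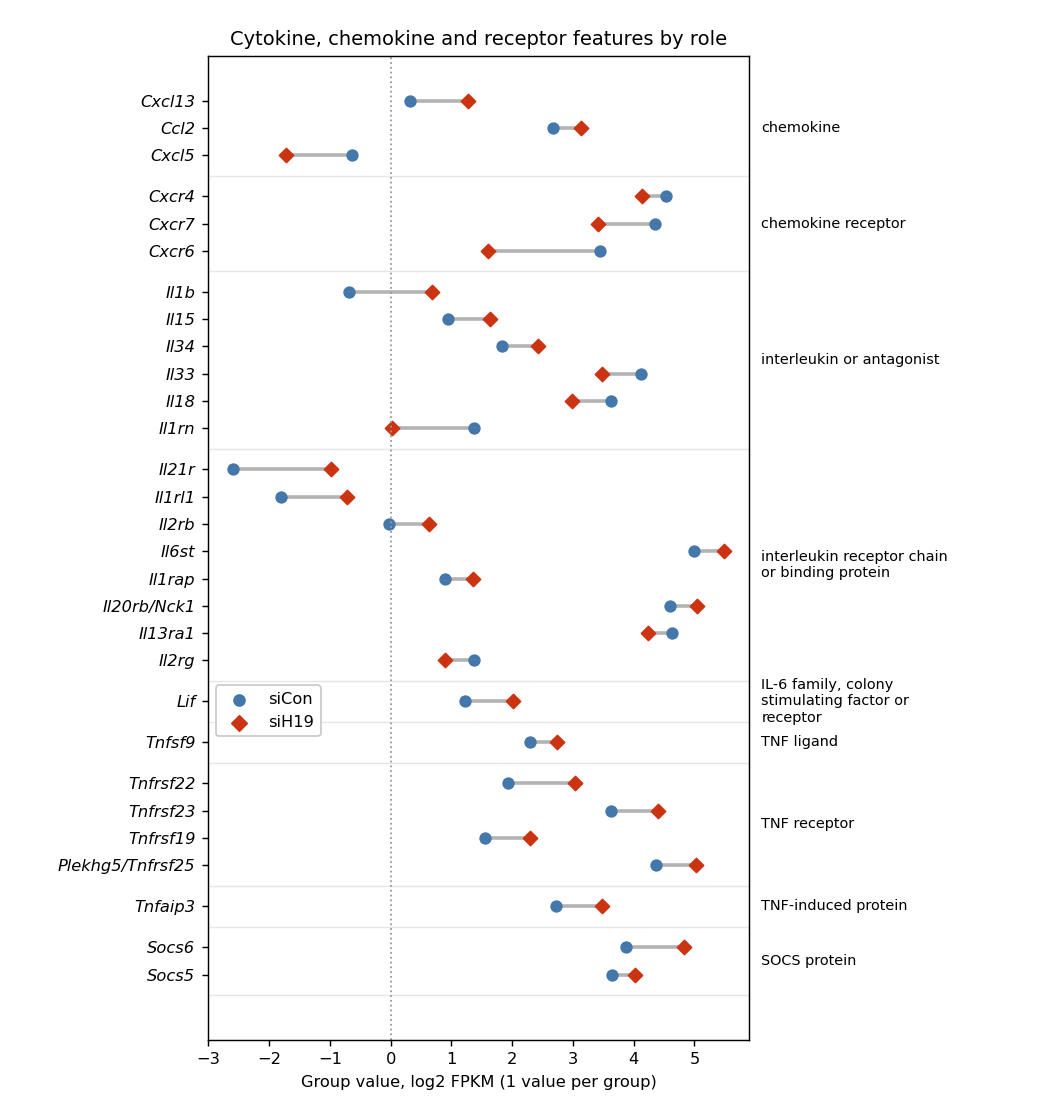
Group values of the 29 members in log2 FPKM, 1 line per feature, grouped by role, with circles for siCon and diamonds for siH19, and a dotted line at 1 FPKM. The 3 chemokine receptors lie lower in siH19 and the 4 TNF receptors higher, beside 37.2% lower and 62.8% higher over all listed features, and each point is 1 value per group with no error available.

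The promoters of 3 members are shown because their genes carry the IL-1 and NF-κB results below: Il1b, its antagonist Il1rn and the NF-κB inhibitor Tnfaip3. Each window runs from 250 bases before to 50 bases after the transcription start in RefSeq (GRCm38.p6), 5′ to 3′ on the strand of the gene. Capitals mark the matches named after the sequences. Il1b lies at chr2:129371090-129371389 on the minus strand, Il1rn at chr2:24336610-24336909 on the plus strand and Tnfaip3 at chr10:19015361-19015660 on the minus strand.
Il1b: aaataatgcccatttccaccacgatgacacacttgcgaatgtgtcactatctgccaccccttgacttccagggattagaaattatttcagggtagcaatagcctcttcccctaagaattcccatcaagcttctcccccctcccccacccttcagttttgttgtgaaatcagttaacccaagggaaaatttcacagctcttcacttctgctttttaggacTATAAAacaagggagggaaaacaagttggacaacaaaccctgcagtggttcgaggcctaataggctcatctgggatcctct
Il1rn: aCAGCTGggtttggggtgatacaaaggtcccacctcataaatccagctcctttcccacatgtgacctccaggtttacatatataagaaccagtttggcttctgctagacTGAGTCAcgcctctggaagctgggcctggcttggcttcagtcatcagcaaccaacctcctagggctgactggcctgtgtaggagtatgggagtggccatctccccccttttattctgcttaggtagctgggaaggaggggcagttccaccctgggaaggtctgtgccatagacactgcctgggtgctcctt
Tnfaip3: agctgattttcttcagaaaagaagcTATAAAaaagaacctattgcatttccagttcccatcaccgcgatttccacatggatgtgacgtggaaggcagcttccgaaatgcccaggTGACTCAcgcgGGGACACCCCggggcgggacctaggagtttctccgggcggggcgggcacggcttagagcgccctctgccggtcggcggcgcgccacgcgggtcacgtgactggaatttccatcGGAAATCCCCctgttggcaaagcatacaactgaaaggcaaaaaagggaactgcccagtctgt

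In the Il1b window, the capitals are a TATAAA that begins 31 bases before the start. In the Il1rn window, they are an E box, CAGCTG, 249 bases before the start and an AP-1 motif, TGANTCA, 141 bases before it. In the Tnfaip3 window, they are TATAAA 225 bases before the start, an AP-1 motif at 136 bases, and matches to the κB consensus at 125 bases and, on the opposite strand, at 12 bases. The first κB match follows the AP-1 motif without overlap.

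Promoters were found for 20 of the 29 members, in 27 windows, among 32851 promoters of 300 bases. Motifs were searched on both strands. The κB consensus was in 1 window of the members (3.7%) and in 4.51% of all promoters. The GAS motif bound by STAT factors, TTCNNNGAA, was in 2 windows (7.41%), those of Tnfrsf19 and Tnfrsf25, and in 8.3% of all promoters. The AP-1 motif was in 3 windows (11.1%), of Il1rn, Lif and Tnfaip3, and in 7.81% of all. TATAAA was in 10 windows (37.0%) of 9 genes and in 13.6% of all promoters, and of these 9 genes 4 were higher and 5 lower in siH19, beside 12 and 8 of the 20 members with a promoter. The E box was in 7 windows (25.9%), of Cxcl13, Il18, Il1rn, Il33, Lif, Tnfrsf19 and Tnfrsf23, and in 16.3% of all. A match describes letters in the window and not binding.

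The IL-1 family held opposite differences in a ligand and its antagonist. Here and for the genes that follow, a pair of values is in log2 FPKM unless FPKM alone is named, with siCon before siH19. Il1b, the pro-inflammatory ligand IL-1β, had group values of -0.68 (siCon) and 0.68 (siH19) in log2 FPKM, a difference of 1.36. Il1rn, the secreted antagonist that occupies the same receptor without signalling, had 1.37 and 0.02, a difference of -1.35. The ratio of Il1b to Il1rn in FPKM was therefore 0.241 in siCon and 1.58 in siH19. The Il1b feature spans 11154 bp, while the Il1b gene covers 6570 bp, so that its value may hold reads from outside the gene. The Il1b locus is also overlapped by the antisense gene Il1bos, and the libraries kept strand, but how strand was used in counting is not given. Both were low, with 0.624 and 1.6 FPKM for Il1b and 2.58 and 1.01 FPKM for Il1rn.

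The other listed ligands of the family were more abundant and lower in siH19. Il33, a nuclear cytokine released on cell damage, had 4.12 and 3.48, a difference of -0.64, or 17.4 and 11.2 FPKM. Il18, a ligand that inflammasomes mature, had 3.62 and 2.98, also -0.64. The Il18 feature spans 48756 bp and overlaps Bco2 and Tex12 as well, while the Il18 gene covers 27014 bp, so that its value may hold reads of other genes.

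The 2 listed receptor chains of the family had higher values in siH19, beside 62.8% of all listed features. Il1rl1, the receptor of IL-33, had -1.81 and -0.72, a difference of 1.09, or 0.32 as log2(FPKM + 1), at 0.285 and 0.607 FPKM. Il1rap, the accessory chain that IL-1 and IL-33 receptors share, had 0.90 and 1.36, a difference of 0.46 that became 0.05 when lowered by the 0.41 of the features with a symbol. The FPKM ratio of Il33 to Il1rl1 was 61.0 in siCon and 18.4 in siH19.

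**Figure D2:**
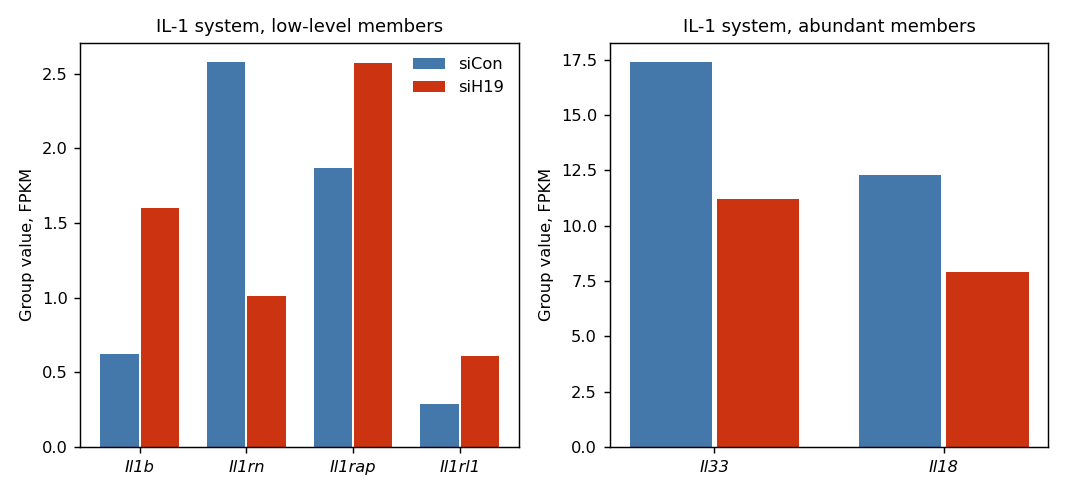
Group values in FPKM of the 6 listed IL-1 system members, with separate vertical axes for the low-level members on the left and the abundant ones on the right, and bars for siCon and siH19. The order of Il1b and Il1rn is opposite in the groups, with Il1rn the higher in siCon and Il1b in siH19, and Il33 and Il18 are lower in siH19.

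The 3 listed chemokine receptors were all lower in siH19, 2 of them past 1.5-fold, beside 37.2% and 16.9% of all listed features. Cxcr4 and Cxcr6 are 2 of 18 annotated under such symbols, and Cxcr7 is annotated under its newer name outside these 18. Cxcr6, the receptor of CXCL16, had log2 FPKM values of 3.45 (siCon) and 1.60 (siH19). The difference of -1.85 is 3.61-fold and was the lowest of any member, with rank 19 among the lower features with a symbol. The Cxcr6 feature, at chr9:123789434-123862029 in mm10, covers 72596 bp and also overlaps Fyco1 and Xcr1, whereas the Cxcr6 gene covers 5286 bp. A separate Fyco1 feature with the same locus had 3.26 and 3.99, a difference of 0.73, so that features at 1 locus differed in opposite directions. How the assembly divided reads between them cannot be seen from the table.

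Cxcr7, now called Ackr3, is a scavenging receptor of CXCL12 that does not couple to G proteins in the usual way. Its values were 4.35 and 3.42, a difference of -0.93. Cxcr4, the signalling receptor of the same chemokine, had 4.54 and 4.14, a difference of -0.40. The ratio of Cxcr7 to Cxcr4 in FPKM was 0.877 in siCon and 0.607 in siH19.

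Of 35 chemokines annotated under Ccl, Cxcl or Cx3cl symbols, with Cxcl10 left out, 3 were listed. Cxcl13, which attracts B cells, had 0.32 and 1.27, a difference of 0.95. Cxcl5, which attracts neutrophils, had -0.64 and -1.72, a difference of -1.08, at 0.642 and 0.304 FPKM. Ccl2, which attracts monocytes, was the most abundant of them with 6.36 and 8.75 FPKM, a difference of 0.46, in a feature that also overlaps Gm17268.

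Il15 and Il34, outside the IL-1 family, also passed 1.5-fold among the interleukins. Il15, a myokine that signals through Il2rb and Il2rg, had log2 FPKM values of 0.94 (siCon) and 1.63 (siH19), a difference of 0.69. Il34, a ligand of the CSF-1 receptor, had 1.84 and 2.43, a difference of 0.59 that lies within the rounding of the table from the cut-off of 0.585. The gene next to the Il34 locus, Mtss1l, had the larger difference of 1.95.

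The shared chains of the IL-2 receptor group did not go in 1 direction. Il21r, the receptor of IL-21, had -2.60 and -0.98, and its difference of 1.62 was the highest of any member on this scale, but 0.37 as log2(FPKM + 1), below that of Tnfrsf22, 0.93. At 0.165 FPKM it was the lowest member in siCon, and it had 0.507 FPKM in siH19. Il2rb had -0.02 and 0.63, a difference of 0.65, in a feature of 32698 bp, while the Il2rb gene covers 16016 bp. Il2rg, the common chain with which both pair, had 1.38 and 0.90, a difference of -0.48, so that the FPKM ratio of Il2rg to Il2rb was 2.64 in siCon and 1.21 in siH19. The Il2rg feature also overlaps the gene model Gm20489.

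Among the members, the IL-6 family gave 1 ligand and the signal chain. Lif, leukemia inhibitory factor, had 1.23 and 2.01, a difference of 0.78. Il6st, gp130, through which LIF and IL-6 signal, was the most abundant member with 32.0 and 44.9 FPKM, or 5.00 and 5.49 on the log2 scale, a difference of 0.49. Il13ra1, a chain of the receptor for IL-13 and IL-4, had 4.63 and 4.24, a difference of -0.39. Il20rb was listed only jointly with Nck1, an adaptor protein, and this feature had 4.60 and 5.05, a difference of 0.45 that cannot be assigned to either gene.

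**Figure D3:**
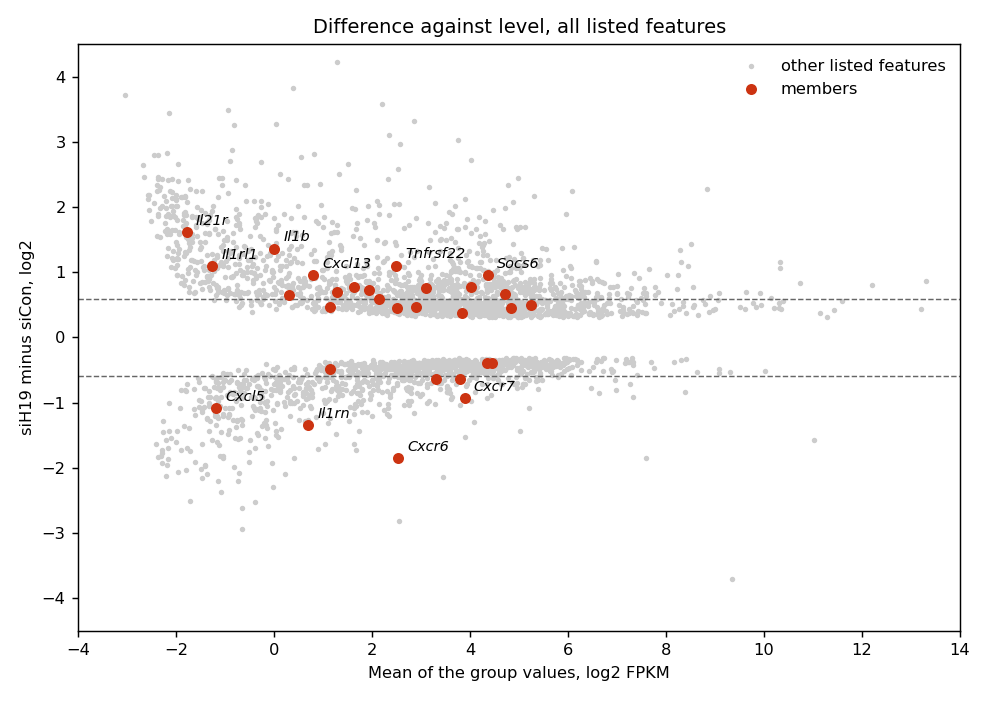
Difference of the group values (siH19 minus siCon, log2) against their mean (log2 FPKM) for the listed features, with the 29 members in red, dashed lines at 1.5-fold, and symbols for members with a difference of at least 0.9 in size. The table lists called features only, none of them near a difference of 0, and the 4 features at the floor of the table, -10, are not drawn.

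Of 20 TNF receptors annotated under Tnfrsf symbols, 4 were listed. All 4 were higher in siH19 and past 1.5-fold, with a median difference of 0.76. Beside them, 62.8% of all listed features were higher and 37.4% were higher past 1.5-fold. Lowered by the 0.41 of the features with a symbol, all 4 differences stayed above 0, but that of Tnfrsf22 alone, 0.69, stayed past 1.5-fold, and the others were 0.37 (Tnfrsf23), 0.32 (Tnfrsf19) and 0.25 (Tnfrsf25). Tnfrsf22 and Tnfrsf23, decoy receptors of the mouse for the death ligand TRAIL, showed log2 FPKM of 1.94 and 3.04 for the former and of 3.62 and 4.40 for the latter. Their differences were 1.10 and 0.78. Tnfrsf19, also known as TROY, had 1.56 and 2.29, a difference of 0.73. Tnfrsf25, death receptor 3, was listed only with Plekhg5 and its locus also overlaps Espn. That joint feature had 4.37 and 5.03, a difference of 0.66 that cannot be assigned to 1 gene. Eda2r, a TNF receptor without a Tnfrsf symbol and given further below, had a difference of 0.51, short of 1.5-fold.

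The decoy receptors are paralogues that lie side by side on the chromosome that carries H19. Tnfrsf22, at chr7:143636725-143649638, and Tnfrsf23, at chr7:143665807-143685874, are 16.2 kb apart and their nearest edges lie 1.06 and 1.09 Mb from the H19 start. Of the 21 listed features within 1.5 Mb of that start, H19 included, 15 were higher and 6 lower in siH19, beside 62.8% higher over all listed features, and of the higher ones Mob2 (0.40) and Kcnq1ot1 (0.39) lie below that median of 0.41. Between the decoy receptors and H19 lie Igf2 (0.80), Ins2 (1.12), an unnamed feature (1.95) and Kcnq1ot1, and beyond them Mrgpre (-0.68) and Dhcr7 (1.19).

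Their sequences share stretches as long as a sequenced end, and the effect of this on counting was not tested. The coding sequences of Tnfrsf22 and Tnfrsf23, 597 and 531 bases in the GENCODE transcripts used, are identical at 481 of 531 aligned bases, 90.6%. Of the stretches of 76 bases, the length of 1 sequenced end, 7.79% of the Tnfrsf22 transcript were also found in Tnfrsf23 and 22.6% of the Tnfrsf23 transcript in Tnfrsf22, and the longest shared stretch was 306 bases. Reads from such stretches may have been divided between the genes, and the ratio of Tnfrsf23 to Tnfrsf22 in FPKM, 3.2 in siCon and 2.57 in siH19, carries that uncertainty.

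**Figure D4:**
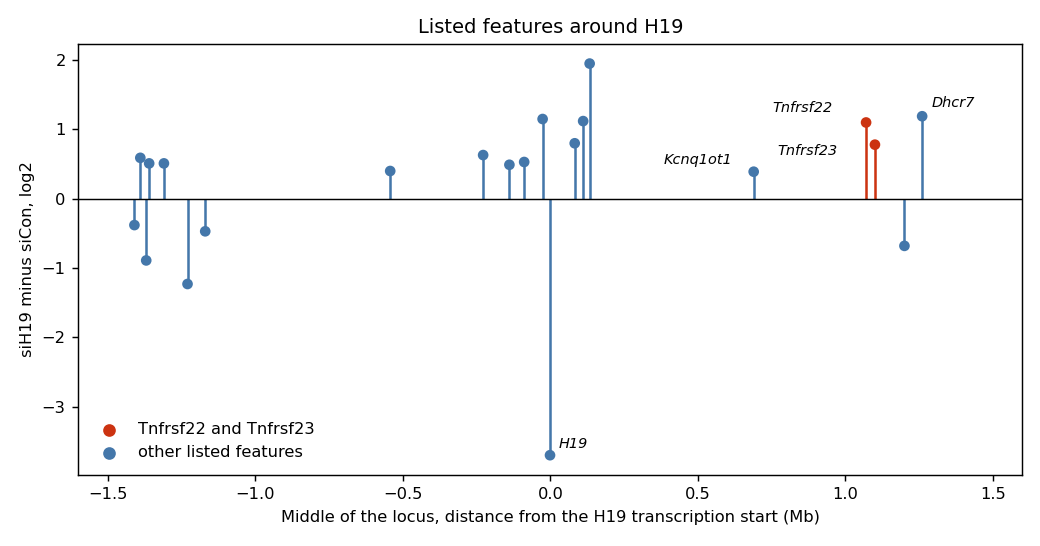
Differences (siH19 minus siCon, log2) of the 21 listed features within 1.5 Mb of the H19 transcription start, placed by the distance of the middle of each locus from that start in Mb. Tnfrsf22 and Tnfrsf23 (red) stand at 1.10 and 0.78, and H19 at -3.70.

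The other members of the TNF system and the inhibitors were higher in siH19, beside 62.8% of all listed features, though once lowered by the median of the features with a symbol Socs5 turned to -0.03 and Tnfsf9 came to 0.04. Tnfsf9, a ligand that costimulates T cells, had 2.29 and 2.74, a difference of 0.45. The Tnfsf9 feature spans 16368 bp, while the gene covers 2433 bp. Tnfaip3, the ubiquitin-editing enzyme that limits NF-κB signalling, had 2.73 and 3.48, a difference of 0.75, or 6.63 and 11.2 FPKM. Of 7 annotated SOCS genes, 2 were listed. Socs6, which acts on receptor tyrosine kinases, had 3.88 and 4.83, a difference of 0.95. Socs5, which restrains signalling by IL-4 and the EGF receptor, had 3.64 and 4.02, a difference of 0.38.

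H19 is known to bind miRNAs of the let-7 family, whose seed is complementary to CTACCTC. The mature miRNA and the matches found in members are printed to show where this seed could pair, the miRNA from RefSeq (GRCm38.p6, chr13:48538239-48538260, minus strand) and the sites from GENCODE transcripts of GRCm38. Capitals mark the seed, bases 2 to 8, and its matches, and 9 of 10 let-7 names share this seed.
let-7a-5p: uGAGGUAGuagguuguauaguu
Il20rb: gaggcataaccatcaCTACCTCcagg
Tnfaip3: atgcttctaagtatcCTACCTCtttg

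The Il20rb site begins at base 880 of the 3′ UTR and the Tnfaip3 site at base 1219. These were 2 of the 29 members (6.9%), beside 8.8% of 20914 protein-coding genes and 12.2% of 2413 listed genes with such a UTR. Both had higher values in siH19, as did 20 of the 29 members. Il20rb was the gene measured jointly with Nck1.

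The genes that carry cytokine signals inside the cell were taken from a separate list. Of 54 genes of NF-κB, IL-1, Toll-like and TNF signalling, 12 were listed, 8 of them higher and 4 lower, beside 62.8% of all listed features higher. Their median difference was 0.41, the same as over all features with a symbol. Ikbkg, the regulatory subunit of the IκB kinase, had 2.94 and 4.24, the highest difference of this list at 1.30. The NF-κB subunits Rel and Nfkb2 had 0.58 and 1.19, and 4.21 and 4.80. Tab3, an adaptor of the kinase TAK1, had 1.08 and 1.68. Chuk, a catalytic subunit of the same IκB kinase, was lower with a difference of -0.35.

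The largest differences towards lower values in this list were those of kinases. Irak4, the first kinase below the IL-1 and most Toll-like receptors, had 3.08 and 2.30, a difference of -0.78. Ripk3, a kinase of necroptosis, had 2.16 and 1.14, a difference of -1.02. Peli2, a ubiquitin ligase of the pathway, had -0.45. Cyld, Tab2, Peli1 and Map3k14 had differences of 0.46, 0.41, 0.40 and 0.36, of which those of Peli1 and Map3k14 are below the median of 0.41 over the features with a symbol.

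Of 28 genes of JAK-STAT signalling, 7 were listed, 5 higher and 2 lower, beside the same 62.8%, with a median difference that was also 0.41. None of the higher ones passed 1.5-fold, beside 37.4% of all listed features that were higher past it. They were Bcl6 (0.53), Pias2 (0.50), Ptpn11 (0.49), Sh2b1 (0.41) and Stat5b (0.38), the last of which is below the median of the features with a symbol. Pim1, a kinase gene that STAT factors activate, had 3.75 and 3.05, a difference of -0.70, and Tyk2, a JAK kinase, had -0.33.

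A list of 50 other symbols of cytokines and receptors held older and newer names of some genes, and 47 of the symbols are in the annotation. Of this list, 3 features were listed. Its Ackr3 is the gene listed as Cxcr7 and counted among the members. Eda2r, a TNF receptor for ectodysplasin, was more abundant than any member with 6.06 and 6.57, a difference of 0.51. Flt3l, a growth factor of dendritic cells, had 1.18 and 0.46, a difference of -0.72. Cntf was listed only with U05342 and Zfp91, at 0.54.

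**Figure D5:**
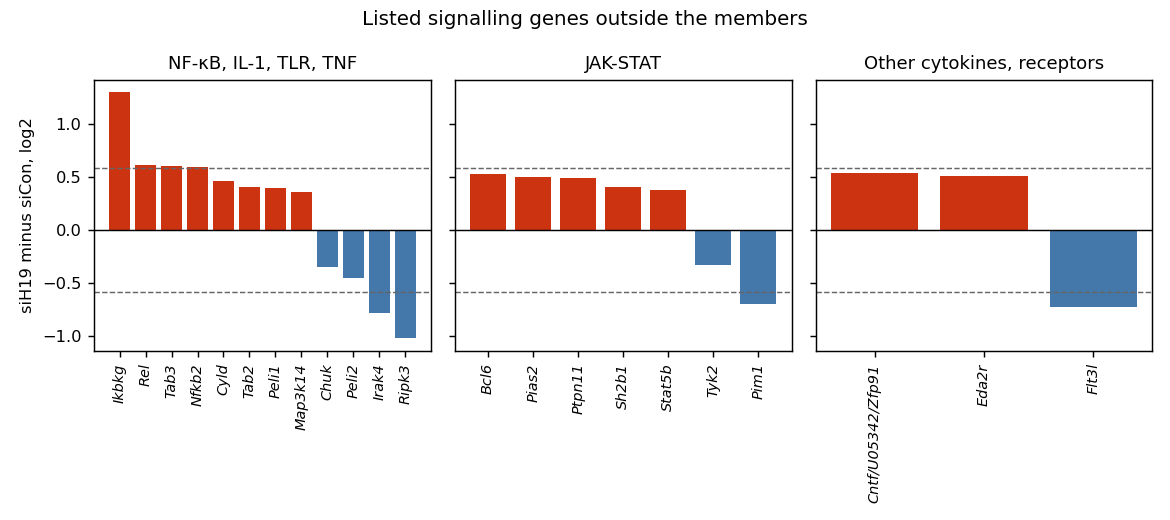
Differences (siH19 minus siCon, log2) of the listed genes of NF-κB, IL-1, Toll-like and TNF signalling (12 features), of JAK-STAT signalling (7) and of cytokines and receptors with other symbols (3), with dashed lines at 1.5-fold. Ikbkg at 1.30 and Ripk3 at -1.02 mark the ends of the first list, and each bar is a difference of 1 value per group with no error available.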

How the data were processed

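The libraries were 3 of siCon and 3 of siH19 myotubes, made from stranded total RNA depleted of rRNA. The submitters' processing notes name TopHat2 2.0.7, TopHat 1.0.0, Cuffdiff 2.1.1 and mm10, and the gene annotation of the assembly is not given in the sources used here. The table deposited by the authors gives FPKM on a log2 scale, 1 value for the libraries of a group together, with 2 decimals. They also deposited columns of their own comparison (a log2 fold change, a q-value and a call), of which the call was read only to count that every listed feature carries it, and the others were not used. The paper describes the transfections as made in triplicate, and the labels do not say more about what the replicate numbers mark.

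Differences are siH19 minus siCon, with a rounding error of up to 0.01. The cut-off was 1.5-fold. Starts were converted to counting from 1, and loci were compared with GENCODE M21. Members and lists were chosen with earlier results of these data known. Every member is named, and those past 1.5-fold or with a log2 FPKM of at least 5 are given with both values. The lists were written by hand from general knowledge. From the list of further cytokines and receptors, 1 gene is not reported here. The 3′ UTR of the longest protein-coding transcript was searched for the seed match. Alternatives covered the cut-off, low values, joint features, scaling and a pseudocount. Python 3.11.15, numpy 2.4.6, pandas 2.3.3, Biopython 1.88 and matplotlib 3.10.9 were used, and the computation was tested on simulated data. No interval is given, since counts were not used here.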

Additional observations from a re-analysis of the deposited data

How the results depend on the processing

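With 1 pooled value per group, no replicate could be left out. No paired analysis was possible because the table holds no value per library. Depth and replicate spread are therefore unknown and the precision of a difference cannot be given, least of all for the members below 1 FPKM. Past 1.5-fold, 14 members were higher and 6 lower, with a median difference of 0.49 over all members. At 2-fold the counts were 4 and 3, by construction of the stricter cut-off. Lowering every difference by 0.41 gave 4 higher and 9 lower (248 and 1016 of the 2549 features with a symbol), a median of 0.08, and turned Socs5 to -0.03, also by construction. That shift is the median of listed features only, so that it may not be the shift of all genes. On the scale of log2(FPKM + 1), 8 were higher and 4 lower with a median of 0.38, and all 29 differences kept their sign and were smaller. The median was 0.47 over the 26 members that reach 1 FPKM in either group, where 12 were higher and 5 lower. Over the 27 features with 1 symbol it was 0.49, with 13 and 6. Without a fold cut-off, 20 were higher and 9 lower. After the data had been seen, 2 alternatives were added. A cut-off raised by the rounding error gave 13 and 6. The 23 members whose locus overlaps 1 protein-coding gene had a median of 0.65, with 13 higher and 4 lower, since 6 features were left out, among them Cxcr6 and Il18.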
